A study of Mus musculus with 6 samples.

Results

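The 9 genes described here encode the enzymes that make lanosterol and turn it into cholesterol, and they are *Lss*, *Cyp51*, *Tm7sf2*, *Msmo1*, *Nsdhl*, *Hsd17b7*, *Ebp*, *Sc5d* and *Dhcr7*. They were chosen by name as known members of the pathway, and each matched 1 of the 16300 genes in the deposited table. Transcripts were measured by RNA-seq in primary cultures of granulosa cells (GCs), which line the ovarian follicle and nurse its oocyte. The control group held 3 libraries, and 3 more came from GCs given 25 nM dihydrotestosterone (DHT), an androgen that aromatase cannot turn into estrogen, for 24 h. Both groups came from wild type C57BL/6J mice aged 8 to 9 weeks. In the methods of the study, each RNA-seq sample is a pool of GCs from several mice, with 3 pools per treatment, and GCs were cultured with serum, serum starved and then treated in serum-free medium. The labels contradict themselves in places. Their extraction text speaks of whole ovaries although the cell type is granulosa cells, and their treatment text gives DHT to all samples, so the groups follow the treatment characteristic of each sample. Neither the labels nor the methods say whether a control and a DHT library came from the same pool, and the p-values measure the spread between these libraries.

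Cholesterol is built from acetyl-CoA through mevalonate and squalene, and the enzymes described here carry out the part of the pathway that begins with ring closure. Lanosterol then loses its extra methyl groups, and its double bonds are moved or reduced in the membrane of the endoplasmic reticulum. The genes are classical targets of the sterol regulatory element-binding proteins (SREBPs), membrane-bound transcription factors that are released when sterols in that membrane run low, and their promoters are known to combine SREBP sites with sites for NF-Y, which binds the CCAAT box, and for SP1, which binds the GC box. In the ovary, cholesterol is the substrate of all steroid hormones, and the sterols made by CYP51 and by the reductases after it are known as meiosis-activating sterols because they can restart meiosis in cultured oocytes.

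RefSeq promoter windows, from 250 bases before to 50 bases after each annotated start, were found for all 9 genes. All 9 held a CCAAT box on at least 1 strand, against 42.9% of the 11340 genes of the table that have a window. With the 250 bases before the start alone, the box was still found in 9 genes, against 40.4%. Of the boxes before the start, the nearest is shown for each gene because the box was common to all 9, with the box in capitals, 30 bases in all, on the strand of the gene, 5′ to 3′, in GRCm38.p6. CCAAT read on the other strand appears as ATTGG.
Lss (chr10:76531531-76531560, plus strand): ggtgatgctctgATTGGccgagctcgcatc
Cyp51 (chr5:4104709-4104738, minus strand): cgctgtccgccaCCAATctggtcctgagat
Tm7sf2 (chr19:6067880-6067909, minus strand): ctcccagcgctgATTGGctactgtgctggg
Msmo1 (chr8:64733616-64733645, minus strand): gagtggggcggaCCAATtacgacaggcgag
Nsdhl (chrX:72918489-72918518, plus strand): aagactagcctcATTGGgcaaaatcatgct
Hsd17b7 (chr1:169969200-169969229, minus strand): ggccgagccttgATTGGtcgaggtgcgcgt
Ebp (chrX:8193550-8193579, minus strand): atccctgtactgATTGGttcgtcagattcg
Sc5d (chr9:42264307-42264336, minus strand): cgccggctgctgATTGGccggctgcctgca
Dhcr7 (chr7:143830153-143830182, plus strand): aatccacttccgATTGGtcgtctgtgacct

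The box was in the ATTGG orientation in 7 genes and in the CCAAT orientation in *Cyp51* and *Msmo1*. It began between 12 bases (*Hsd17b7*) and 62 bases (*Lss*) before the start, with a median of 47. For *Dhcr7*, RefSeq gives 3 starts, and the box belongs to the third, which lies inside the gene, while the windows of the other 2 held none. The boxes shown for *Cyp51*, *Tm7sf2*, *Msmo1* and *Hsd17b7* also lie inside the gene spans given below, which come from GENCODE. The distances therefore hold for the RefSeq starts only. The GC box GGGCGG was also found in 9 of 9 genes, but 67.0% of the genes with a window had one. The E-box CACGTG was present in 3 of 9 (*Hsd17b7*, *Sc5d* and *Dhcr7*), against 11.4%. The classical sterol response element, TCAC followed by any base and CCAC, was in 0 of 9 genes and in 1.48% of genes. The single androgen receptor repeat AGAACA was in 3 of 9 (*Tm7sf2*, *Hsd17b7* and *Dhcr7*), against 15.0%, and in 2 of 9 without the bases after the start. The full androgen response element, 2 such repeats inverted around 3 bases, was in 0 of 9 and in 0.0088% of genes. All motifs were searched on both strands and without mismatches, and the full element contains the single repeat by construction. A match is a stretch of letters and not a measured binding site.

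Longer stretches are shown for *Nsdhl* and *Sc5d*, whose responses to DHT lay near the opposite ends of the range given below. Each is 130 bases long and ends close to the start, with every CCAAT box in capitals.
Nsdhl (chrX:72918391-72918520, plus strand): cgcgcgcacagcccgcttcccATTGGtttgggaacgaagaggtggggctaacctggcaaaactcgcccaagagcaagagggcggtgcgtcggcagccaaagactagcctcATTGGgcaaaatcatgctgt
Sc5d (chr9:42264301-42264430, minus strand): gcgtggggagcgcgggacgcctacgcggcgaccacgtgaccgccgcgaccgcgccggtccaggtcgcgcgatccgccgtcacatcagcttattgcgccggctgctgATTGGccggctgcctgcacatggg

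The *Nsdhl* stretch holds 2 boxes and a GC box, and the *Sc5d* stretch holds 1 box and an E-box. Over the whole windows, *Nsdhl*, *Msmo1* and *Hsd17b7* had more than 2 CCAAT boxes, as the map of motif matches shows.

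**Figure D1:**
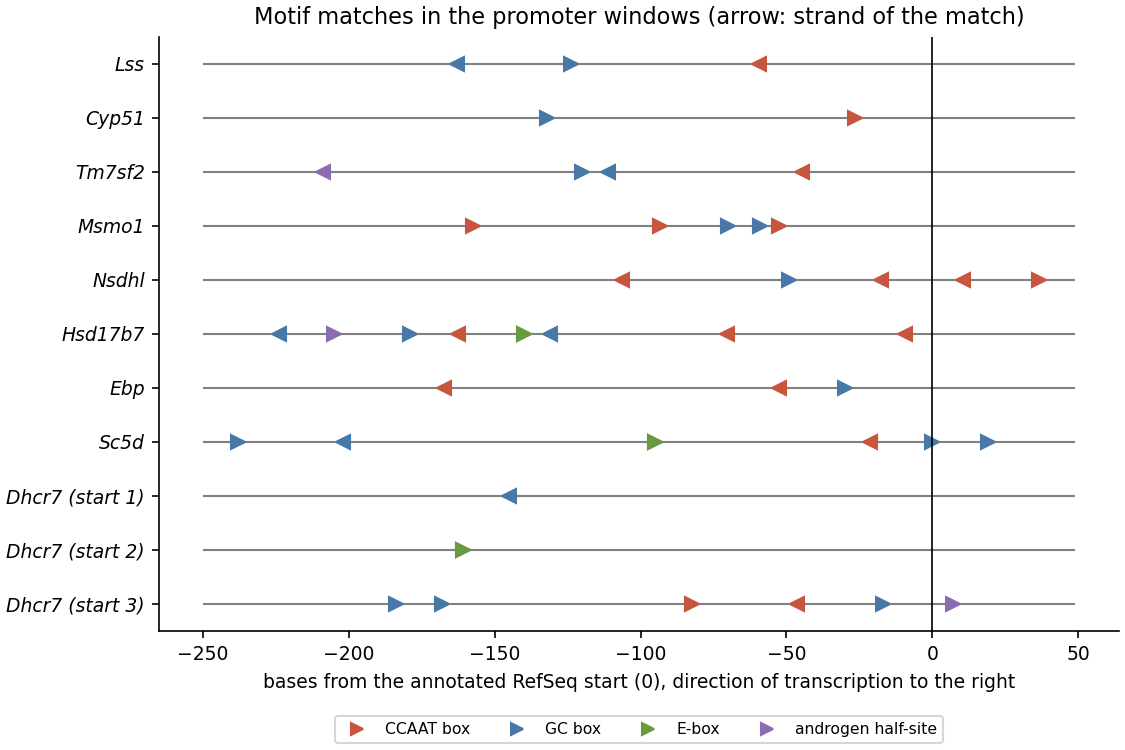
Matches to 4 motifs in the 11 RefSeq promoter windows of the 9 genes, plotted by distance in bases from the annotated start, with arrows for the strand. A CCAAT box lies between 12 and 62 bases before a start in every gene, for *Dhcr7* only at the third start.

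Transcripts of all 9 enzymes were higher in DHT-treated GCs than in control GCs. The values are normalized counts, reads per gene after division by a size factor for each library. They were compared as log2(value + 1) with limma across the 16292 genes whose mean reached 10, with Benjamini-Hochberg adjustment. At an adjusted p of at most 0.05, 9 of 9 rose, where 6.52% of all genes tested were higher and 4.66% were lower. With the added condition of a log2 fold change above 1, 4 of 9 passed (*Tm7sf2*, *Nsdhl*, *Cyp51* and *Msmo1*), against 0.908% of all genes. The groups did not overlap, with DHT higher, in 9 of 9, against 15.9% of all genes. The median log2 fold change of the enzymes was 0.74, against -0.0052 over all genes, whose 5th and 95th percentiles were -0.48 and 0.54. In all tested genes, 1063 were called higher and 760 lower, and with scaling by total reads, an alternative chosen after seeing the data, these were 907 and 1012, with 9 of the 9 enzymes still higher. In such bulk samples, a change in the RNA per cell and a change in the share of cells of a type cannot be told apart.

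The libraries held 36111177 to 41928585 reads on genes. Between 476 and 16931 of these fell on each of the 9 genes in a library, for which counting error alone is at most 4.58%. The coefficient of variation between libraries was 2.77% to 10.3% in control and 0.84% to 9.65% in DHT. The lowest DHT library exceeded the highest control library by a factor of 1.13 to 2.26. The largest such gap was that of *Tm7sf2* and the smallest that of *Sc5d*, as the plot of values by library shows.

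**Figure D2:**
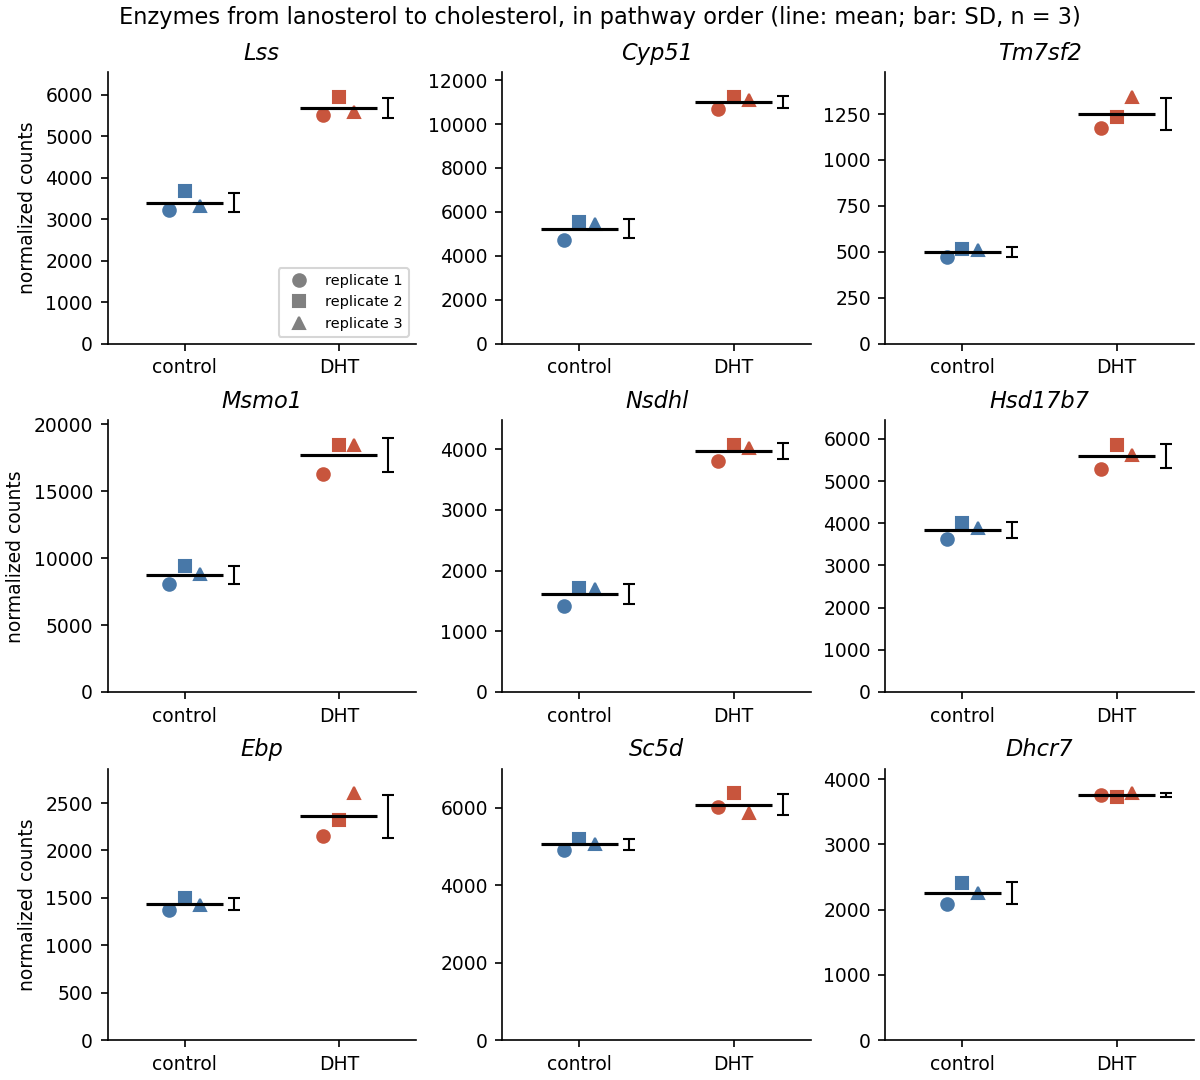
Normalized counts of the 9 genes in each library, in pathway order, with control and DHT on the x axis, a line for the mean and a bar for the SD (n = 3). The 3 DHT libraries lie above the 3 control libraries in every panel, by the least for *Sc5d*, whose lowest DHT value is 1.13 times the highest control value.

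*Lss* (ENSMUSG00000033105; chr10:76531588-76557138) encodes lanosterol synthase, which folds squalene epoxide into lanosterol. Its normalized counts were 3225, 3673 and 3316 in control replicates 1 to 3 and 5510.2, 5949.6 and 5584 in DHT replicates 1 to 3. The groups were far apart relative to their spread, 3404 ± 237 against 5681 ± 235 (SD, n = 3 each). The log2 fold change was 0.74 (SE 0.055, adjusted p = 0.0001 by limma). An antisense transcript covers 3.53% of its exonic bases, at a mean of only 17.9 normalized counts.

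*Cyp51* (ENSMUSG00000001467; chr5:4081145-4104746) encodes the cytochrome P450 that removes the first methyl group from lanosterol, the target of azole antifungals in its yeast form. The control libraries had 4740.4, 5524 and 5474 normalized counts, and the DHT libraries had 10689.6, 11232 and 11095. All DHT values were above 1.9 times the highest control value, and the DHT libraries differed from each other by less than the control libraries did. Its log2 fold change was 1.07 (SE 0.059, adjusted p = 3e-05 by limma). *Akap9*, on the other strand, shares 3.76% of the exonic bases of *Cyp51* and had a mean of 7984 normalized counts, and the strand setting of the authors' counting is not given in the sources used here.

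*Tm7sf2* (ENSMUSG00000024799; chr19:6062821-6068373) encodes the sterol reductase of the endoplasmic reticulum that reduces the double bond left by CYP51. It had the fewest reads of the 9 and the largest change. Values of 471, 518 and 510.4 normalized counts in control became 1171, 1233 and 1343 in DHT. That is 499.7 ± 25.1 against 1249 ± 87.0 (SD, n = 3 each), and a log2 fold change of 1.32 (SE 0.068, adjusted p = 3e-05 by limma). Only 0.485% of all genes had a larger log2 fold change. *Vps51*, on the same strand, shares 12.1% of the exonic bases of *Tm7sf2* and had a mean of 1347 normalized counts. Reads from the shared bases could have been left out or assigned to either gene.

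*Msmo1* (ENSMUSG00000031604; chr8:64718139-64733792) encodes the monooxygenase that starts the removal of the remaining pair of methyl groups. It had the highest level per kilobase of exon of the 9 in every library, with 8025, 9402 and 8781 normalized counts in the control libraries and 16238, 18424 and 18425.5 in the DHT libraries. DHT replicate 1 was the lowest of its group but still 1.73 times the highest control library. Its rise, a log2 fold change of 1.02 (SE 0.068, adjusted p = 6.6e-05 by limma), was so close to 1 that it fell below 1 without control replicate 1 (0.96), DHT replicate 2 (0.99) or DHT replicate 3 (0.99), and with total read scaling (0.99).

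*Nsdhl* (ENSMUSG00000031349; chrX:72918557-72958514) encodes the dehydrogenase that acts after MSMO1 and splits off the oxidised carbon. It rose almost as much as *Tm7sf2*. The control libraries had 1419, 1709.9 and 1703 normalized counts, with replicate 1 well below the other two, and the DHT libraries had 3812, 4067 and 4023. The mean went from 1610.5 ± 166 to 3968 ± 136 (SD, n = 3 each), a log2 fold change of 1.30 (SE 0.071, adjusted p = 3e-05 by limma).

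*Hsd17b7* (ENSMUSG00000026675; chr1:169949535-169969241) encodes the keto reductase that completes the removal of each methyl group other than the one that CYP51 removes. The same enzyme is known in the ovary for reducing estrone to estradiol. Its rise was the second smallest. Normalized counts of 3629, 4004 and 3895 in control compared with 5294, 5854 and 5621 in DHT. This gave a log2 fold change of 0.54 (SE 0.051, adjusted p = 0.00034 by limma). The groups were separated by a factor of 1.32.

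*Ebp* (ENSMUSG00000031168; chrX:8185329-8193512) encodes the isomerase that moves the ring double bond. The control libraries had 1373, 1501 and 1427 normalized counts and the DHT libraries had 2152, 2325 and 2603. The DHT libraries varied more than for any other of the 9, with a coefficient of variation of 9.65%, and all 3 were above control. The log2 fold change was 0.72 (SE 0.069, adjusted p = 0.0004 by limma).

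*Sc5d* (ENSMUSG00000032018; chr9:42251595-42264256) encodes the desaturase that makes 7-dehydrocholesterol, the sterol from which vitamin D is formed in skin, when it acts on lathosterol. It changed least. Control values of 4912, 5191 and 5066 normalized counts lay just under DHT values of 6017, 6378 and 5860.3. The log2 fold change was 0.27 (SE 0.043, adjusted p = 0.0044 by limma). Of all genes tested, 12.6% had a larger one, and the adjusted p was 0.051 when limma was run without its intensity trend.

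*Dhcr7* (ENSMUSG00000058454; chr7:143823145-143848410) encodes the last reductase of the route, the enzyme that is lacking in Smith-Lemli-Opitz syndrome. The control libraries had 2088, 2413 and 2259 normalized counts. The DHT libraries were nearly alike at 3763, 3721 and 3783, with a coefficient of variation of 0.84%. Its log2 fold change of 0.74 (SE 0.053, adjusted p = 8.9e-05 by limma) was that of *Lss* to both decimals, and the ratio of means was 1.67 at the entry and at the exit of the segment.

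The 9 genes ranked the control libraries alike. Control replicate 1 was the lowest control library and control replicate 2 the highest in 9 of 9 genes. Some but not all of the listed genes upstream of lanosterol had the same order. Its share among all genes was not worked out. The order in DHT was less even, with replicate 1 the lowest library in 7 of 9 genes and the highest being replicate 2 in 5 genes and replicate 3 in 4. In control replicate 1, the genes lay 5.74% below their group mean in the median. The median log2 fold change of the 9 was 0.70 without control replicate 1 and 0.80 without control replicate 2, the lowest and highest values on leaving out a library. Summed over the 9 genes, the normalized counts were 29882, 33935 and 32431 in control and 54648, 59182 and 58338 in DHT. The mean sum of normalized counts was higher in DHT by a factor of 1.79. As a share of the reads of a library, the sum was 0.083% in control and 0.146% in DHT in the mean. The exact permutation test of the sum (two-sided) gave p = 0.1. This test cannot give a smaller p with 3 libraries in each group.

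The fold changes of neighbouring enzymes differed in size. Ratios between neighbouring enzymes within a library do not depend on the scaling of libraries, and in all 8 neighbouring pairs the control and DHT ratios did not overlap. Of all pairs of the 16292 genes tested, 30.2% had ratios that did not overlap. The largest shift was between *Nsdhl* and *Hsd17b7*, whose products act one after the other in the removal of methyl groups. The log2 ratio of *Hsd17b7* to *Nsdhl* was 1.19 to 1.35 in control and 0.47 to 0.53 in DHT, a difference of -0.76 (SE 0.052). The next largest were those around *Sc5d*. The log2 fold change of *Sc5d* was below that of *Ebp* by -0.45 (SE 0.10), and that of *Dhcr7* was above that of *Sc5d* by 0.47 (SE 0.057). Smaller differences separated *Cyp51* from *Lss* (0.33, SE 0.055), *Tm7sf2* from *Cyp51* (0.25, SE 0.056), *Msmo1* from *Tm7sf2* (-0.30, SE 0.048) and *Nsdhl* from *Msmo1* (0.29, SE 0.051). The difference between *Ebp* and *Hsd17b7* was 0.17, with a 95% interval from -0.02 to 0.37, which includes no difference. With the pair of *Tm7sf2* and *Lbr* described below, 9 pairs were compared, each with p = 0.1 by the exact permutation test (two-sided) and 0.1 after Benjamini-Hochberg adjustment over the 9, again the smallest values possible.

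These differences changed the make-up of the segment, as the plot of shares shows. Of the summed normalized counts, *Msmo1* held 27.2% ± 0.44 in the control libraries and 30.8% ± 0.98 in the DHT libraries (SD, n = 3 each). *Cyp51* went from 16.3% ± 0.51 to 19.2% ± 0.33, *Nsdhl* from 5.01% ± 0.25 to 6.92% ± 0.055 and *Tm7sf2* from 1.56% ± 0.029 to 2.18% ± 0.11. In these 4 genes every DHT share was above every control share. The share of *Sc5d* was 15.8% ± 0.59 in control and 10.6% ± 0.50 in DHT, and that of *Hsd17b7* was 12.0% ± 0.17 and 9.74% ± 0.14. Those of *Lss* and *Dhcr7* were also lower in every DHT library, by less than 1 percentage point in the mean. The shares of *Ebp* overlapped between the groups (4.40% to 4.60% against 3.93% to 4.46%). Shares of 1 sum depend on each other, so larger shares of some genes lower those of others. How often such shares separate over all genes was not worked out. As normalized counts, 15.9% of all genes were higher and 14.7% lower in every DHT library than in every control library.

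**Figure D3:**
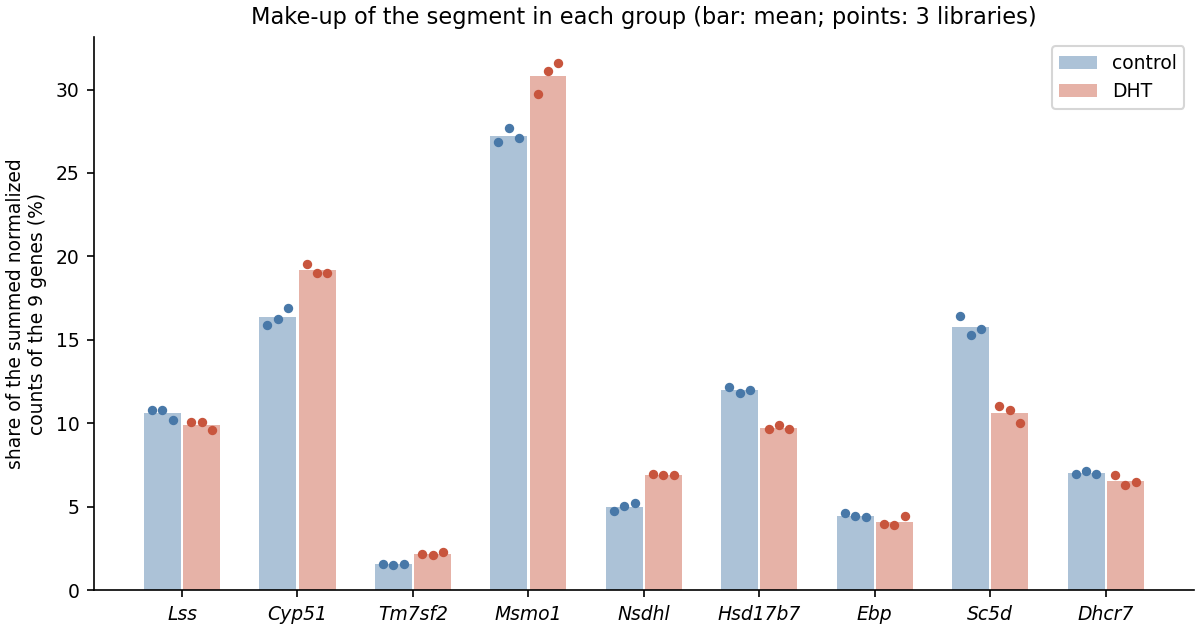
Share of each gene in the summed normalized counts of the 9 genes, in percent, with bars for the group mean and points for the 3 libraries of control and DHT. *Msmo1*, *Cyp51*, *Nsdhl* and *Tm7sf2* had larger shares in every DHT library, and *Sc5d* went from 15.8% to 10.6%.

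To compare levels between genes, the normalized counts were divided by the length of all annotated exons of each gene in kilobases. In control GCs, *Msmo1* was highest with 1422 ± 112 normalized counts per kilobase, followed by *Cyp51* with 1188 ± 99.3, *Sc5d* with 1039 ± 28.8, *Hsd17b7* with 753 ± 37.8, *Ebp* with 621 ± 27.7, *Nsdhl* with 564 ± 58.2, *Dhcr7* with 387 ± 28.0, *Lss* with 316 ± 21.9 and *Tm7sf2* with 113 ± 5.70 (SD, n = 3 each). Neighbours in this order did not overlap in 7 of 8 pairs, the exception being *Ebp* and *Nsdhl*. In DHT, *Nsdhl* moved up to the third place with 1391 ± 47.7 per kilobase, above *Sc5d* with 1251 ± 54.6, and its libraries did not overlap with those of *Sc5d*. *Hsd17b7* and *Ebp* overlapped in DHT, and the other 7 pairs of neighbours did not. *Msmo1* and *Cyp51* remained the 2 highest, and *Dhcr7*, *Lss* and *Tm7sf2* the 3 lowest. The levels per kilobase depend on the annotated exons, since cells may not use all of them.

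**Figure D4:**
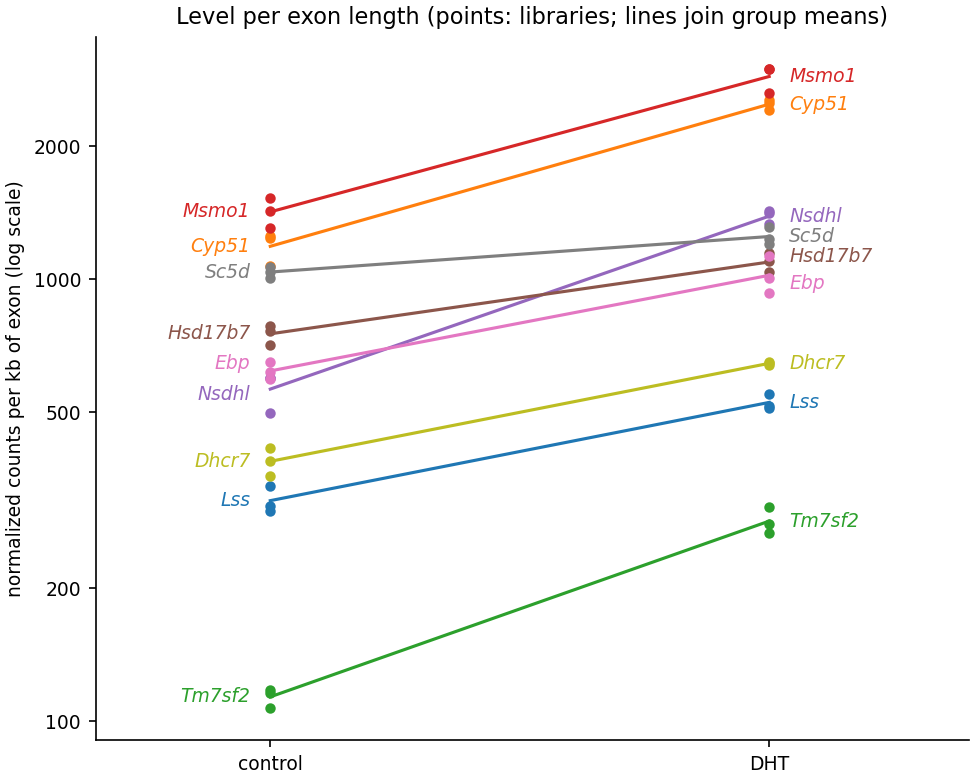
Normalized counts per kilobase of exon for the 9 genes on a log axis, with points for the 3 libraries of control and DHT and lines between the group means. The line of *Nsdhl* crosses those of *Ebp*, *Hsd17b7* and *Sc5d*, from 564 to 1391.

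Of 4 other genes listed for the same part of the pathway, 3 were in the table, and 1 rose. *Erg28*, which encodes the scaffold that holds MSMO1, NSDHL and HSD17B7 together, had a log2 fold change of 0.47 (SE 0.048). *Ebpl*, a homologue of *Ebp* without known isomerase activity, did not pass (log2 fold change -0.13, adjusted p = 0.25 by limma), although its 3 DHT libraries were the lowest 3. *Faxdc2* was not analysed here.

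*Lbr* encodes a protein of the inner nuclear membrane with the same sterol reductase activity as *Tm7sf2*. Its normalized counts were 1597, 1835 and 1943 in control and 2238, 2070.5 and 2055 in DHT. The groups did not overlap but lay close, and the log2 fold change of 0.25 did not pass (SE 0.072, adjusted p = 0.06 by limma). It passed without control replicate 3 (adjusted p = 0.019 by limma). The log2 ratio of *Tm7sf2* to *Lbr* was -1.93 to -1.76 in control and -0.93 to -0.61 in DHT, a difference of 1.07 (SE 0.10). Per kilobase, *Lbr* stood at 376 ± 37.2 in control and 445 ± 21.3 in DHT (SD, 3 libraries each), more than *Tm7sf2* in both groups.

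CYP51, MSMO1 and SC5D need electrons from NADPH-cytochrome P450 reductase or cytochrome b5, and the genes of these donors and of 2 heme-binding partners moved in both directions. Of 7, 2 rose, 2 fell and 3 did not pass. *Cyb5a*, the cytochrome b5 of the endoplasmic reticulum, went from 14221, 12521 and 12080.2 normalized counts in control to 7494, 8004 and 7628 in DHT, so that every DHT library was well below control. Its log2 fold change of -0.74 (SE 0.060, adjusted p = 0.00015 by limma) was of the same size as the rise of *Lss* and *Dhcr7*. *Cyb5b*, the form of the outer mitochondrial membrane, rose by a log2 fold change of 0.26 (SE 0.035).

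*Por*, the P450 reductase itself, had 4528, 4205 and 4389 normalized counts in the control libraries and 3989.5, 3979.5 and 3959 in the DHT libraries. Its log2 fold change of -0.14 narrowly missed the threshold (adjusted p = 0.052 by limma), and 4 of 15 alternatives brought it below. The cytochrome b5 reductase genes *Cyb5r1* (-0.09) and *Cyb5r3* (0.10) did not pass. *Pgrmc1*, whose product binds heme and associates with CYP51, fell with a log2 fold change of -0.38 (SE 0.068, adjusted p = 0.0081 by limma), and did not pass without the intensity trend, at the same fold change (adjusted p = 0.074 by limma). *Pgrmc2*, a related heme chaperone, rose with a log2 fold change of 0.33 (SE 0.045).

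The enzymes upstream of lanosterol rose as well. Of 9 listed genes between acetyl-CoA and squalene epoxide, 9 rose, with a median log2 fold change of 0.82. The lowest of these was *Pmvk*, which encodes phosphomevalonate kinase, with 337, 359.6 and 349 normalized counts in the control libraries and 571, 567 and 542 in the DHT libraries (0.68, SE 0.066). The highest was *Fdps*, which makes farnesyl diphosphate, with 2932, 3529 and 2949 in control and 7439, 8399.7 and 8692 in DHT (1.38, SE 0.081). Among 8 genes of SREBP processing and feedback, 4 rose, 1 fell and 3 did not pass. The highest was *Insig1*, which retains SREBP in the endoplasmic reticulum and is itself an SREBP target, with a log2 fold change of 0.72 (SE 0.072). The lowest was *Mbtps1*, the first protease that cuts SREBP, with a log2 fold change of -0.25 (SE 0.036). The plot of fold changes sets these lists side by side.

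**Figure D5:**
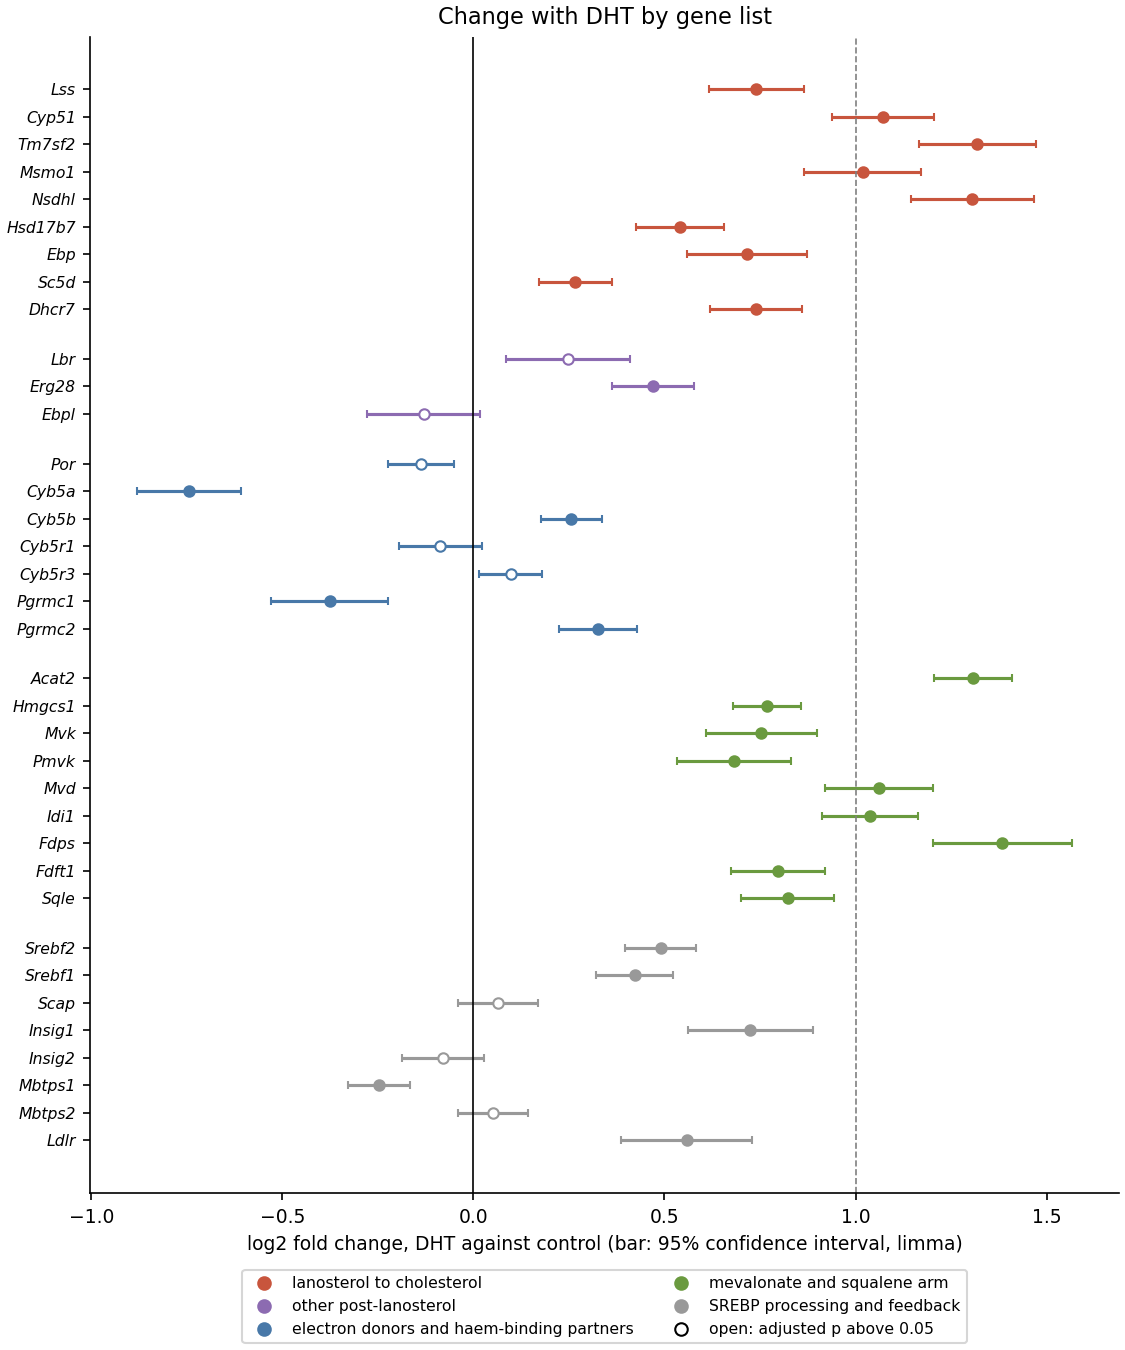
Log2 fold change of DHT against control for the 9 genes and the 4 related lists, with points for the limma estimate, bars for the 95% confidence interval and open points for an adjusted p above 0.05. The 9 genes run from 0.27 (*Sc5d*) to 1.32 (*Tm7sf2*), and *Cyb5a* lies at -0.74.

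The genes outside these lists whose pattern was most like the mean of the 9 were sought among 11581 genes with a mean of at least 100 normalized counts. Likeness was the root mean square difference between centred log2 values over the 6 libraries, and the 10 nearest genes lay between 0.052 and 0.080. They were, in order, *Slc6a6*, *Rnf19a*, *Gpr176*, *Timp4*, *Gm43031*, *Loxl3*, *Col9a2*, *Abcb1b*, *Fads1* and *Sgk1*. For comparison, the 9 genes themselves lay between 0.069 (*Dhcr7*) and 0.30 (*Sc5d*) from their own mean, and *Sqle*, which makes the squalene epoxide that LSS uses, lay at 0.020. Of the same upstream list, *Fdft1* (0.053), *Hmgcs1* (0.068) and *Mvk* (0.078) also lay within the range of the 10 nearest genes. *Slc6a6*, the taurine transporter, had 74786, 85409.6 and 81882 normalized counts in the control libraries and 128663, 143673 and 137959 in the DHT libraries. Replicate 1 was the lowest library of both groups, but the gene was chosen by likeness over these same libraries. *Fads1*, the delta-5 desaturase of polyunsaturated fatty acids, had 5392, 5813 and 5965 in control and 9154, 9541 and 9402 in DHT. The abundances of *Timp4*, *Gm43031* and *Col9a2* were much lower, and counting error alone reached 10.3% to 11.6% in their libraries. The measure reads only the 6 libraries and says nothing of shared control.

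Cell type markers were read beside these results. Of 8 granulosa markers, 7 were in the table, with summed normalized counts of 116160 to 129830 in control and 101279 to 110567 in DHT. *Inha* and *Foxl2* fell (log2 fold changes -0.61 and -0.15), 5 did not pass, and *Cyp19a1* was not analysed here. *Fshr* and *Amh* were low, with means of 145 to 150.1 and 126 to 130.3. Of the theca and stroma markers, 3 of 5 were in the table, and *Acta2*, a smooth muscle actin that cultured stromal cells also express, rose with a log2 fold change of 0.76, from 4293, 6425 and 5479 to 8217, 9086 and 9735 normalized counts. The other two did not pass and had lower means in DHT, with log2 fold changes of -0.19 for *Ptch1* (adjusted p = 0.064 by limma), whose groups did not overlap, and -0.41 for *Tcf21* (adjusted p = 0.69 by limma). *Cyp17a1* and *Insl3* were not analysed here. The endothelial markers summed to 101 to 169 and the leukocyte markers to 182 to 255 over all libraries. Of the leukocyte markers, *Csf1r* fell (log2 fold change -0.64, adjusted p = 0.027 by limma), while *Ptprc* (0.72, adjusted p = 0.22 by limma, groups not overlapping) and *Cd68* (-0.07) did not pass. The 5 oocyte markers did not pass, and DHT replicate 2 stood apart with a sum of 106 normalized counts, against 320 to 734 in the other libraries. *Zp3* was at 0 there, and *Zp2*, *Gdf9* and *Bmp15* were also lowest in that library. *Ddx4*, at 73.1 in DHT replicate 2, lay within its control range of 67.8 to 87.1. Without that library, 9 of 9 genes still rose, with log2 fold changes from 0.23 (*Sc5d*) to 1.33 (*Tm7sf2*). The 5 markers of the ovarian surface epithelium did not pass. The part of these markers in the results of the 9 genes was not tested.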

How the data were processed

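RNA-seq was done on 3 control and 3 DHT libraries. The authors trimmed reads with Trimmomatic 0.36, mapped them to GRCm38 with STAR 2.5.2b and counted them with featureCounts of Subread 1.5.2. The deposited signal is a normalized count, which is reads after division by a DESeq2 size factor. Every value was a whole multiple of 1 step per library (100% within a tolerance of 1e-06), and dividing by the step, taken as 1 read, gave 36111177 to 41928585 reads per library. The deposited fold changes and p-values of the authors' own test were not used. Counting intervals cover counting error only.

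Groups follow the treatment characteristic of each sample. The test was limma 3.58.1 (R 4.3.3) on log2(value + 1), using an intensity trend. It covered the 16292 genes whose mean across 6 libraries reached 10, and p-values were adjusted over all of them by Benjamini-Hochberg. A pseudocount understates the fold change of low genes. Single values and ratios were tested by exact permutation. Gene positions and exon overlaps come from the GENCODE annotation of GRCm38 and promoters from RefSeq (GRCm38.p6). The genes named were the 9 enzymes, all of the neighbouring sterol and electron donor lists, the highest and lowest of the upstream and SREBP lists, and the 10 nearest in pattern. Outside this rule, and after their values were seen, *Sqle*, *Fdft1*, *Hmgcs1* and *Mvk* were named in the comparison of patterns. So were the single cell type markers and the genes whose exons overlap the enzymes. Some genes of these lists are not reported here. The members, lists and motifs were chosen with earlier results of these data known. Alternatives were pseudocounts of 0.5 and 8, other filters, TMM, quantile and total read scaling, no intensity trend, the replicate number as a block, and each library left out. The planned count tests were not run.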

Additional observations from a re-analysis of the deposited data

How the results depend on the processing

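Over 15 alternatives, 134 of 135 log2 fold changes of the 9 genes kept their direction and their side of the threshold. The exception was *Sc5d* without the intensity trend (adjusted p = 0.051 by limma), where 8 of 9 genes passed. Between 3 and 4 genes passed both thresholds, with 3 under total read scaling (added after seeing the data) and without control replicate 1, DHT replicate 2 or DHT replicate 3. The median log2 fold change of the 9 ranged from 0.70 to 0.80, and the log2 ratio of their sum from 0.79 to 0.88 over the 10 alternatives run for it. Of the related lists, 2 counts moved. The electron donors that fell, 2 in the main test, were 1 without the intensity trend and 3 with a mean of at least 50, quantile normalization, total read scaling or without control replicate 2, and the other post-lanosterol genes that rose were between 1 and 2 on leaving out a library, with 2 without control replicate 3. The count over all genes, 1063 higher and 760 lower, was 501 and 303 without the intensity trend, 586 and 384 without DHT replicate 2 and 581 and 350 without DHT replicate 3. The cause was not tested.

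The libraries share replicate numbers between groups. Over all genes tested, libraries of the same number did not deviate together from their group means (correlations of 0.0058, 0.067 and -0.24). With 3 libraries in each group, this check cannot tell whether same-numbered libraries came from the same pool. With the replicate block, 633 genes were higher and 357 lower, and 9 of the 9 genes still rose, the highest adjusted p being 0.018 by limma for *Sc5d*. The planned edgeR and DESeq2 tests were not run. At 3 libraries against 3, an exact permutation test of a single value cannot go below p = 0.1.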
